A study of Mus musculus with 2 samples.

Results

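Cells of the mKO2neg gate were set against cells of the mKO2low gate in a single-cell RNA sequencing study of mouse bone marrow. The mice were of strain C57BL/6, 8 weeks old, and expressed the Fucci reporter of cell cycle phase. All 48 cells that the deposited cell table assigns to mKO2neg and all 48 that it assigns to mKO2low were used, 96 of 192 cells. The mKO2neg cells were deposited in 1 library together with 48 mAG+ cells, and the mKO2low cells in another library together with 48 mKO2high cells, so the effects of gate and of library cannot be told apart. The labels give the same strain, tissue and age for both libraries and no drug, no surface gate, no number of mice and no culture. Each gate is therefore 1 sample, cells are not replicates, and no test was run. All 4 gates carry the reporter.

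The Fucci reporter consists of a pair of fluorescent fusion proteins with opposite timing. The orange protein mKO2 carries a fragment of Cdt1, the licensing factor of replication origins, which accumulates in G1 and is destroyed from S phase through the ubiquitin ligase SCF-Skp2. The green protein mAG carries a fragment of geminin, the inhibitor of Cdt1, which accumulates in S, G2 and M phase and is destroyed at the end of mitosis and in G1 through the anaphase-promoting complex. Cells that have just divided hold little of either protein, whereas cells that remain in G0 or G1 accumulate mKO2. Blood stem cells, which the title of the study names, spend most of their time in G0.

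The names attached to the deposited rows were displaced by 1 gene, and each gene was read from the row of the gene before it in GENCODE M21 order. Read this way, protein-coding genes held 92.6% of the 7037513 counts, against 51.9% with the names as deposited. All 25 of 25 widely expressed genes checked had more counts in the preceding row. Summed counts were 1608630 in mKO2neg and 1703263 in mKO2low, with medians per cell of 24633 and 26851.5 counts. Single cells ranged from 1 to 210516 counts in mKO2neg, where 5 cells lay below 5000, and from 7436 to 117134 in mKO2low, where none did. The other gates, given beside them for reference, held 2791584 counts in mAG+ and 934036 in mKO2high. No cell name was shared by the libraries.

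Over all genes the gates were centred on each other. Of 11375 genes with at least 10 counts over both gates, 5741 (50.5%) were higher and 5634 (49.5%) lower in mKO2neg, on a log2 scale of counts per 1000000 counts of the gate (CPM) with a prior count of 1. The median log2 ratio was 0.01 and the quartiles were -0.62 and 0.60. Ratios given below, also those in parentheses beside counts or CPM, are log2 ratios of mKO2neg over mKO2low. At least 2-fold higher were 1743 genes (15.3%) and at least 2-fold lower 1902 (16.7%), and these shares are the background against which the lists below are read. A cell had a median of 3018 genes with a count in mKO2neg (quartiles 2643 and 3699) and of 3507.5 in mKO2low (2963 and 4069). With every cell thinned to 5000 counts, the medians were 1848 genes in the 43 mKO2neg cells that had them and 1889 in the 48 mKO2low cells, so the gap was smaller at equal depth.

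Transcripts that mark blood stem cells were present in both gates at nearly equal level. Of 45 measured transcription factors and markers of stem cells, 20 were higher and 25 lower in mKO2neg, 4 and 3 of them by at least 2-fold, with a median log2 ratio of -0.09 against 0.01 over all genes. The summed level of the list was 9608 CPM in mKO2neg and 10235 in mKO2low, beside 6553 in mAG+ and 12351 in mKO2high. In single cells with at least 1000 counts it ranged from 4769 to 19434 CPM in mKO2neg, with a median of 9596, and from 4861 to 18424 in mKO2low, with a median of 10391. These ranges overlapped almost throughout.

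Hlf, a transcription factor largely restricted to stem cells within blood, had 292 CPM in mKO2neg and 322 in mKO2low and was counted in 41 cells of each gate. Mecom, a zinc finger factor needed for stem cell maintenance, had 235.0 and 236.0 CPM, with counts in 39 mKO2neg and 44 mKO2low cells. The log2 ratios were -0.14 for Hlf (95% counting interval -0.32 to 0.04) and -0.01 for Mecom (-0.21 to 0.20), and both intervals held 0. Intervals here and below cover counting error only. Meis1, a homeobox factor of stem cells, and Lmo2, an adaptor of the stem cell transcription complex, had log2 ratios of 0.15 and -0.09. The largest of the differences in this list were carried by few cells. Hoxb5, a homeobox gene used to mark long-term stem cells, had 137 counts in 12 mKO2neg cells and 30 counts in 8 mKO2low cells (log2 ratio 2.24, interval 1.70 to 2.90), and Fgd5, another stem cell marker gene, had 36 counts in 8 and 4 counts in 4 cells (2.96, interval 1.77 to 5.20). The related Ets factors Erg and Fli1 lay on opposite sides, at 1.02 (interval 0.64 to 1.41) and -1.02 (-1.36 to -0.69). Rarb, a retinoic acid receptor, had 0 counts in mKO2neg and 21 in 2 mKO2low cells, at least 6.61-fold lower in mKO2neg at the floor of 3 counts per gate.

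Surface receptors of stem and progenitor cells likewise had a small median difference, with larger differences in single members. Of 28 measured members, 15 were higher and 13 lower, 2 each way by at least 2-fold, with a median log2 ratio of 0.17. Kit, the stem cell factor receptor, had 177 CPM in mKO2neg and 124 in mKO2low, and it was counted in 40 and 41 cells. Ly6a, which encodes Sca-1, had 278 CPM in mKO2neg and 368 in mKO2low, and Procr, the endothelial protein C receptor, 149.8 and 169.7 CPM. Kit was thus higher in mKO2neg (log2 ratio 0.51, interval 0.25 to 0.78), while Ly6a (-0.40) was lower and the interval of Procr (-0.43 to 0.07) held 0. Slamf1, which encodes CD150, was counted in 9 cells of each gate, with 43 counts in mKO2neg and 50 in mKO2low. Cd48, a marker of progenitors beyond the stem cell, had 1 count in mKO2neg and 2 in mKO2low, too few to compare. Flt3, the receptor that marks multipotent progenitors, had 63 counts in 11 mKO2neg cells and 15 counts in 8 mKO2low cells (2.08, interval 1.32 to 3.07). Tfrc, the transferrin receptor, had 47 counts in 8 mKO2neg cells and 9 counts in 3 mKO2low cells (2.34, interval 1.42 to 3.68), and Cd38 was at -2.52, with all of its mKO2neg counts in 1 cell. Fcgr3 had 0 counts in mKO2neg and 12 in 2 mKO2low cells, at least 3.78-fold lower at the floor of 3 counts per gate.

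Genes of G2 and mitosis were higher in mKO2neg. Of 64 measured members, 57 were higher, 38 of them by at least 2-fold, and 1 was at least 2-fold lower, against the 15.3% and 16.7% of all genes given above. The median log2 ratio was 1.42 against 0.01 over all genes. Summed over the list, the level was 3298 CPM in mKO2neg and 1404 in mKO2low, beside 24455 in mAG+ and 1110 in mKO2high. In summed counts, fewer cells of a type and less RNA per cell cannot be told apart, and the cells themselves are therefore described next.

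Most of the G2 and mitosis counts of mKO2neg lay in 3 cells. Among the 43 mKO2neg cells with at least 1000 counts, the summed level of the list ranged from 511 to 29293 CPM with a median of 1372. Among the 48 mKO2low cells it ranged from 148 to 5509 CPM with a median of 1112. The mAG+ cells lay between 8773 and 48041 CPM, with a median of 25024, and the mKO2high cells between 115 and 2533. The 3 highest mKO2neg cells stood at 29293, 13934 and 12707 CPM and the next at 2477, so that 3 of 43 cells lay within the mAG+ range (6.98%, exact 95% interval 1.46 to 19.1 for counting error among these cells of 1 library). None of 48 mKO2low cells did, which by the same count leaves a share of up to 7.40% at the upper 95% limit. The 3 mKO2neg cells held 10412, 35597 and 210516 counts in all, with counts in 53, 57 and 49 of the 71 members of the list, and the last of them was the deepest cell of the gate with 13.1% of its counts. Together they held 65.5% of the list's counts in mKO2neg, against 16.8% for the 3 highest cells of mKO2low.

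**Figure D1:**
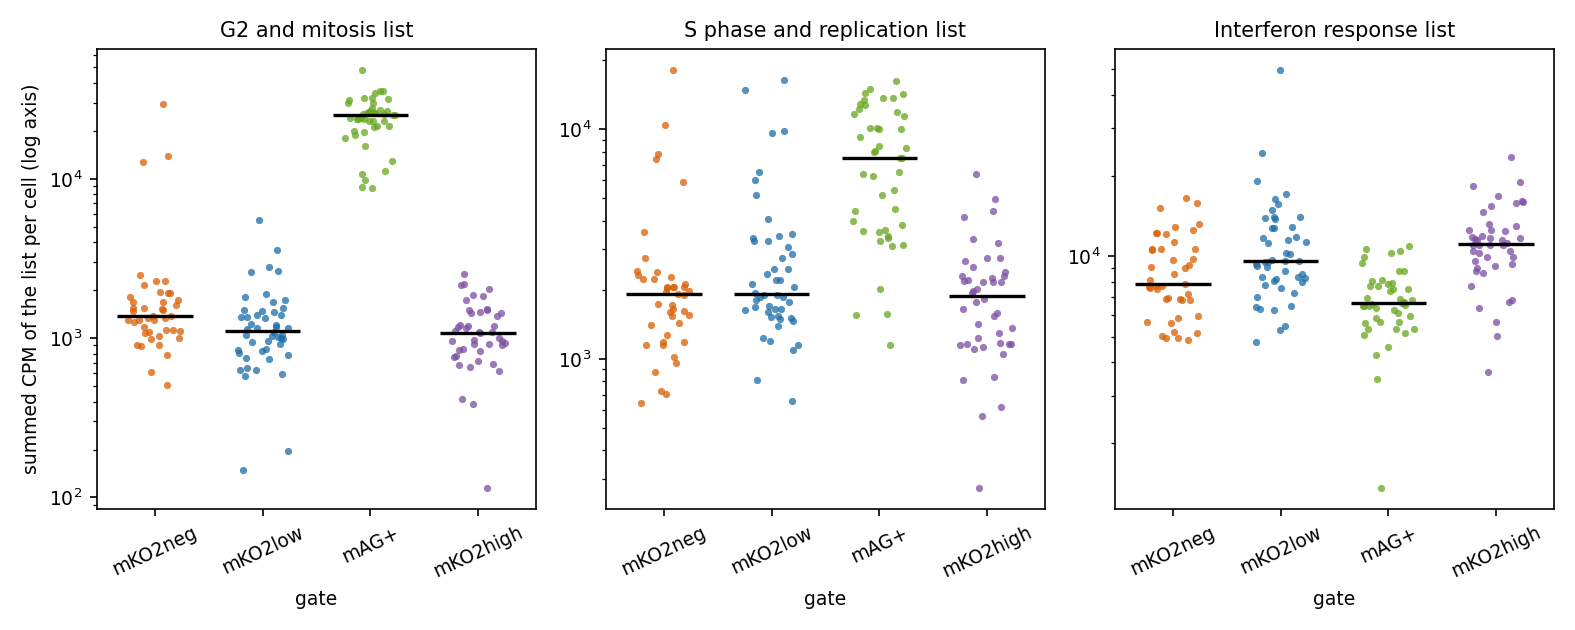
Summed level per cell, in CPM on a log axis, of the G2 and mitosis, S phase and interferon response lists in the 4 gates, for cells with at least 1000 counts. Each point is 1 cell and each bar is the median. For G2 and mitosis, 3 mKO2neg cells lie at 12707 CPM or above, within the range of the mAG+ cells, while the other mKO2neg cells overlap the mKO2low cells.

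Without the 3 highest cells of each gate, the median of the list was 0.26 over 51 genes, of which 35 were higher, 17 by at least 2-fold, and 8 at least 2-fold lower. Without the deepest cell of each gate alone it was 0.79. The median of the list thus remained above 0, with a much smaller difference. The all-gene median and 2-fold shares given above are those of all cells. Values with and without the 3 highest cells of each gate follow for the genes named.

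The kinases and cyclins of mitotic entry included members that were higher with and without these cells. Cdk1, the kinase that drives entry into mitosis, had 183 counts in 21 mKO2neg cells and 39 counts in 12 mKO2low cells. Its log2 ratio was 2.28 (interval 1.81 to 2.85) and was 1.49 without the 3 cells, from 66 and 27 counts. Ccnb2, a B-type cyclin that partners Cdk1, had 149 counts in 23 mKO2neg cells and 9 counts in 8 mKO2low cells. Its log2 ratio of 3.98 (interval 3.17 to 5.29) was 2.51 without the 3 cells, where 43 counts lay in 20 mKO2neg cells and 8 counts in 7 mKO2low cells. Ccna2, the cyclin of S phase and G2, had 84 and 8 counts (3.32), and 11 and 4 counts without the 3 cells (1.47, interval -0.06 to 3.80).

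Ubiquitin ligase components and chromosomal passengers followed. Ube2c, the ubiquitin-conjugating enzyme of the anaphase-promoting complex, had 66 counts in 23 mKO2neg cells and 6 counts in 4 mKO2low cells (3.33, interval 2.34 to 5.04). Without the 3 cells it had 30 counts in 20 and 4 counts in 3 cells (2.84, interval 1.64 to 5.11). Ube2c thus stayed higher in mKO2neg without the 3 cells. Birc5, or survivin, had 236 and 9 counts, with 80.5% of the mKO2neg counts in 1 cell, and its log2 ratio of 4.64 was 1.36 without the 3 cells. Incenp, the scaffold of the same passenger complex, went with it at 3.33 with and 1.93 without them, and the kinase Aurkb at 3.68 and 0.94.

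In other members the ratio was much smaller, or had the other sign, without the 3 cells. Mki67, which encodes the proliferation marker Ki-67, had 108 counts in mKO2neg and 9 in mKO2low (3.52, interval 2.69 to 4.83), and 12 and 7 counts without them (0.91, interval -0.45 to 2.60). Top2a, topoisomerase II alpha, had 259 and 79 counts (1.78, interval 1.43 to 2.18), and 59 and 58 counts without them (0.26, interval -0.29 to 0.81). Racgap1, which acts in cytokinesis, was at 1.04 with them and at -1.02 without (interval -1.88 to -0.28), and Knl1, a kinetochore scaffold, at 2.36 and -1.06 (interval -3.33 to 0.53). Racgap1 and Knl1 thus had the other sign without the 3 cells, with an interval that held 0 for Knl1, and Racgap1 was at -0.34 already without the deepest cell of each gate. Kif11, a spindle motor, had 30 counts in 6 mKO2neg cells and 0 in mKO2low, at least 10.6-fold higher at the floor of 3 counts per gate, and 6 counts in 4 cells and 0 without the 3 cells.

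**Figure D2:**
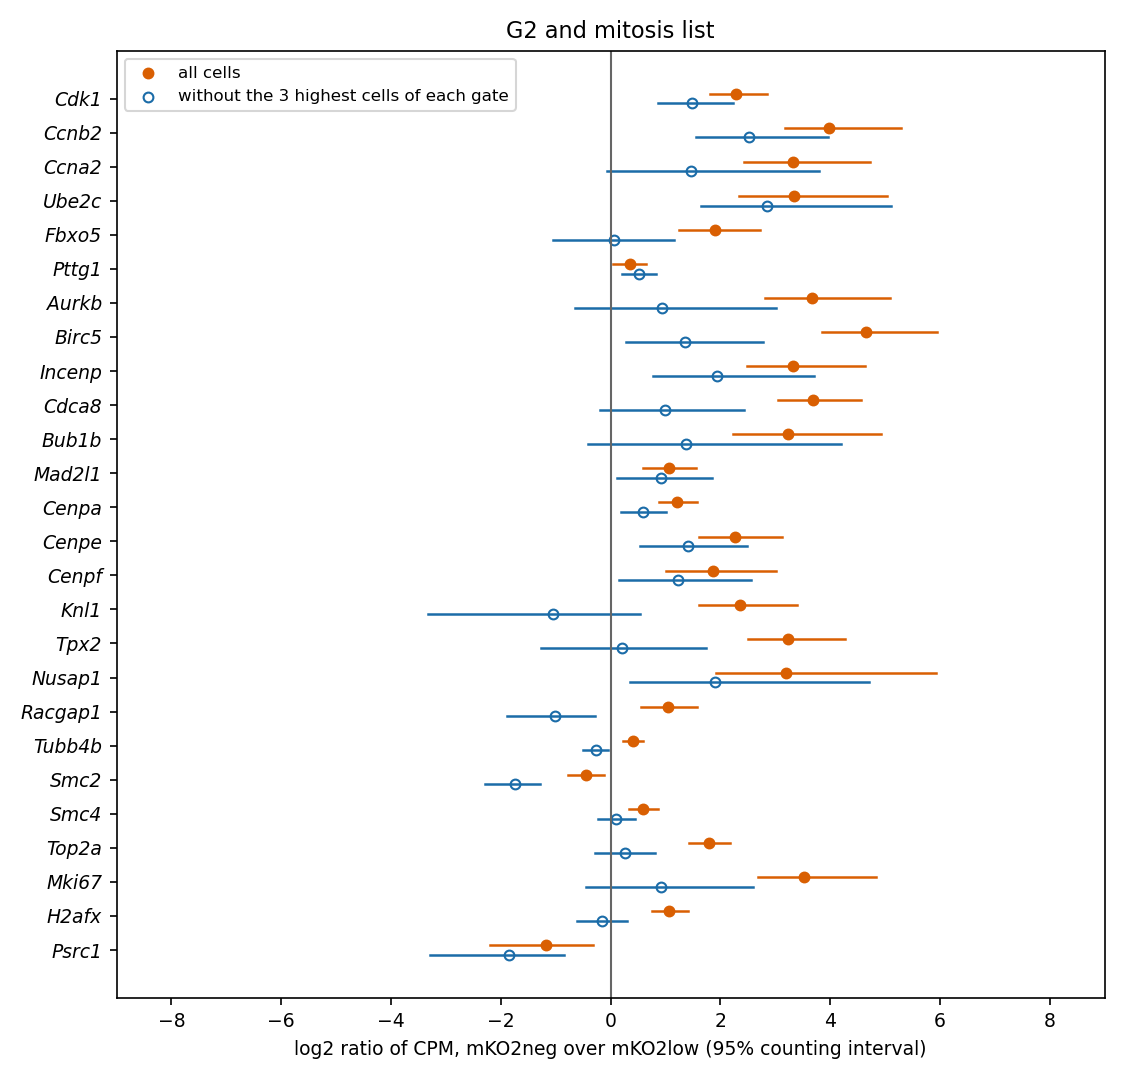
Log2 ratios of mKO2neg over mKO2low for named G2 and mitosis genes, from all cells and without the 3 cells of each gate with the highest summed level of the list. Bars are 95% counting intervals. Ccnb2, Ube2c and Cdk1 lie above 0 in both, while Top2a is at 1.78 with all cells and 0.26 without the 3.

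Many G2 and mitosis genes carry in their promoters a cell cycle homology region (CHR), a short element bound by the MuvB complex, which represses these genes in resting cells and activates them later in the cycle. RefSeq promoter windows of 300 bases around an annotated start (build GRCm38.p6) were found for 59 of the 71 members. TTTGAA or TTCGAA, read on both strands, occurred in 49 of their 63 windows (77.8%), against 14.1% of the windows of all measured genes and 19.2% of all 32851 windows. CCAAT, an element bound by NF-Y that often stands near a CHR and was also read on both strands, occurred in 76.2% of the list's windows and in 37.6% of those of measured genes. Such a match is a description of letters and no evidence of binding. The window of Birc5, which was higher in mKO2neg with and without the 3 cells, held neither a CHR match nor CCAAT. The windows of Cdk1 (chr10:69352863-69353162, minus strand), Ccnb2 (chr9:70421505-70421804, minus strand) and Ube2c (chr2:164769679-164769978, plus strand) are shown, with CHR matches in capitals. These are genes that hold a match and were higher in mKO2neg with and without the 3 cells.
Cdk1: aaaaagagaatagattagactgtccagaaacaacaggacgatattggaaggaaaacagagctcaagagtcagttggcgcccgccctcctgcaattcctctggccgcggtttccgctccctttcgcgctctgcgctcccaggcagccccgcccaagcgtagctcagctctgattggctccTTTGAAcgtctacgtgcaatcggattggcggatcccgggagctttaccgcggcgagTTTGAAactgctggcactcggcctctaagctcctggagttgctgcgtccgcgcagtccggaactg
Ccnb2: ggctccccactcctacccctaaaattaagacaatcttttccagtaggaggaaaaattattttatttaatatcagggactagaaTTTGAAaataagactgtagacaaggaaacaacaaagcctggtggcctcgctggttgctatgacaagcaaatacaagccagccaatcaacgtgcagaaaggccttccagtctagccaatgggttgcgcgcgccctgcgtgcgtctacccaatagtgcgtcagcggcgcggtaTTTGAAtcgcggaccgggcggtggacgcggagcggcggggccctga
Ube2c: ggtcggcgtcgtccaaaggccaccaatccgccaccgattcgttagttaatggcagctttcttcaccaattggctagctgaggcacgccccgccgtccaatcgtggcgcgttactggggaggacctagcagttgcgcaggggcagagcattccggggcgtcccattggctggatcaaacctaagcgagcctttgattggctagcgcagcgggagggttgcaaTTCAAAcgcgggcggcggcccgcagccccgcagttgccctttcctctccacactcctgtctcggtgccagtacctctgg

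Genes of DNA replication gave a different answer in summed counts than in single cells. Of 61 measured S phase genes, 42 were higher and 19 lower in mKO2neg, 12 and 6 by at least 2-fold, and the median log2 ratio was 0.31. The list's summed level was 4479 CPM in mKO2neg and 3335 in mKO2low, beside 7844 in mAG+ and 2103 in mKO2high. Yet the median cell had 1925 CPM in mKO2neg and 1921 in mKO2low. The highest mKO2neg cell of the list, at 18089 CPM, was the deepest cell, and the 3 highest held 66.3% of the list's counts, against 26.8% for the 3 highest of mKO2low. When the deepest cell of either gate was left out, 12 of 60 genes were higher and the median was -0.66. Without the 3 highest cells it was -0.73, and with equal weight for each cell it was -0.16, so the direction of this list was that of 1 mKO2neg cell.

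Pcna, the sliding clamp of the replication fork, had 526 counts in 34 mKO2neg cells and 219 counts in 31 mKO2low cells (1.34, interval 1.12 to 1.58), and it was still higher without the 3 highest cells, with 202 and 151 counts (0.70, interval 0.39 to 1.02). Rrm2, a subunit of ribonucleotide reductase, had 85 counts in 6 and 8 counts in 2 cells (3.33, interval 2.45 to 4.75), and was at 1.64 without the deepest cell of each gate. Other members turned round. Dut, which removes dUTP, was at 0.91 with all cells and -0.42 without the 3 (interval -0.72 to -0.13), and Uhrf1, which recruits the maintenance methyltransferase to replicated DNA, at 2.41 and -1.52 (interval -3.75 to -0.08). Rfc4, a subunit of the clamp loader, was lower, with 16 counts in mKO2neg and 63 in mKO2low (-1.83, interval -2.79 to -1.09), but was at 0.36 in thinned cells. The cells' own genes of Cdt1 and geminin, the proteins of which the reporter carries fragments, were less than 2-fold apart. Cdt1 had 59 counts in 7 mKO2neg cells and 60 counts in 8 mKO2low cells (0.06, interval -0.49 to 0.60), and Gmnn 137 in 10 and 91 in 12 cells (0.67, interval 0.28 to 1.07). Gmnn was at -0.70 without the deepest cell of each gate and at -0.53 in cells thinned to 5000 counts, so its direction rested on 1 cell.

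Histone genes with polyadenylated or variant transcripts were higher in mKO2neg. Of 16 measured, 14 were higher, 10 by at least 2-fold, and none was at least 2-fold lower, with a median of 1.12, or 1.08 without the 3 highest cells of this list. Hist1h2bc, a histone H2B gene, had 396 CPM in mKO2neg and 62.8 in mKO2low, beside 34.03 in mAG+ and 179 in mKO2high, and it was counted in 27 and 10 cells of the first pair (2.64, interval 2.36 to 2.97). Hist1h1c, a linker histone gene, had 598 CPM in mKO2neg and 210.2 in mKO2low, beside 131 in mAG+ and 460 in mKO2high (1.51, interval 1.33 to 1.69). Both were thus low in mAG+, the gate with the most G2 and mitosis counts. Hist1h2ae, an H2A gene, had the other order, with 163 CPM in mKO2neg and 10.6 in mKO2low, beside 419 in mAG+ and 8.56 in mKO2high (3.88, or 1.74 without the deepest cell of each gate). H2afz, the variant H2A.Z, had 403 and 298 CPM (0.44, or -0.27 without the deepest cell of each gate), and H3f3b, the replication-independent H3.3, had 4360 and 4637 CPM (-0.09). At equal depth the median of the list was 0.39, and histone genes of the cluster are near-identical copies between which reads may have been split.

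Of 12 tubulin and stathmin genes, 10 were higher, none of them by at least 2-fold, and the median of 0.34 was -0.24 without the 3 highest cells. Stmn1, which destabilises microtubules, had 942 CPM in mKO2neg and 596 in mKO2low (0.66, or -0.21 with the deepest cell of either gate left out).

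Of 18 measured cyclins and CDK subunits, 14 were higher (50.5% of all genes were), 1 by at least 2-fold, and the median was 0.22. None was at least 2-fold lower. Ccnd2, a D-type cyclin that carries growth signals to the cycle, had 884 CPM in mKO2neg and 857 in mKO2low (0.04, interval -0.06 to 0.15), beside 308 in mAG+ and 1429 in mKO2high. Ccnd3 had 126 and 64.0 CPM (0.97, interval 0.63 to 1.32). Cdk6, a partner kinase of the D cyclins that times exit from quiescence, had 77.7 and 68.1 CPM (0.19, interval -0.19 to 0.57). Of these 3 genes, Ccnd3 had an interval that excluded 0.

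CDK inhibitors and pocket proteins had a median of -0.28 over 13 genes, with 4 higher and 9 lower, 2 each way by at least 2-fold. The largest difference was that of Cdkn2c, a CDK inhibitor gene that was higher in mKO2neg. It had 58 counts in 6 mKO2neg cells and 4 counts in 3 mKO2low cells (3.63, interval 2.51 to 5.86). Hexim1 (-3.21, 3 and 38 counts) and Btg3 (-1.45, 16 and 48 counts) were at least 2-fold lower. Cdkn1a, which encodes p21, had 70 counts in 9 mKO2neg cells and 141 in 11 mKO2low cells (-0.92, interval -1.36 to -0.50). Of its mKO2low counts, 36.2% lay in 1 cell. Cdkn1c, which encodes p57, a quiescence factor of stem cells, had 154 counts in 15 and 120 in 20 cells (0.44, interval 0.09 to 0.80, but -0.51 without the deepest cell of each gate), and Cdkn1b, which encodes p27, had 17 and 22 counts in 6 cells each. Rbl1, which encodes the pocket protein p107 and is itself transcribed in cycling cells, was higher at 2.21 (interval 1.56 to 3.05), with 56.6 CPM in mKO2neg and 11.7 in mKO2low, beside 105 in mAG+ and 10.7 in mKO2high, and it was at 1.37 without the deepest cell of each gate. A list of 25 genes held the machinery that degrades the reporter together with Cdt1 and Gmnn themselves. Of these, 15 were higher, Cdt1 and Gmnn among them, and 10 lower, 2 and 4 by at least 2-fold, with a median of 0.14. Those at least 2-fold higher were Anapc1, the largest subunit of the anaphase-promoting complex, at 1.21 (93 and 42 counts), and Fbxo5, an inhibitor of that complex, at 1.91 (77 and 21 counts) but 0.05 without the 3 cells highest in the G2 and mitosis list and -0.12 when each gate's deepest cell was left out. Those at least 2-fold lower were Anapc2 at -1.04 (44 and 97 counts), Anapc4 at -1.16 (27 and 65 counts) and Cdc23 at -1.29 (11 and 30 counts), subunits of the same complex, and Cul4b, a cullin scaffold, at -1.09 (15 and 35 counts).

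**Figure D3:**
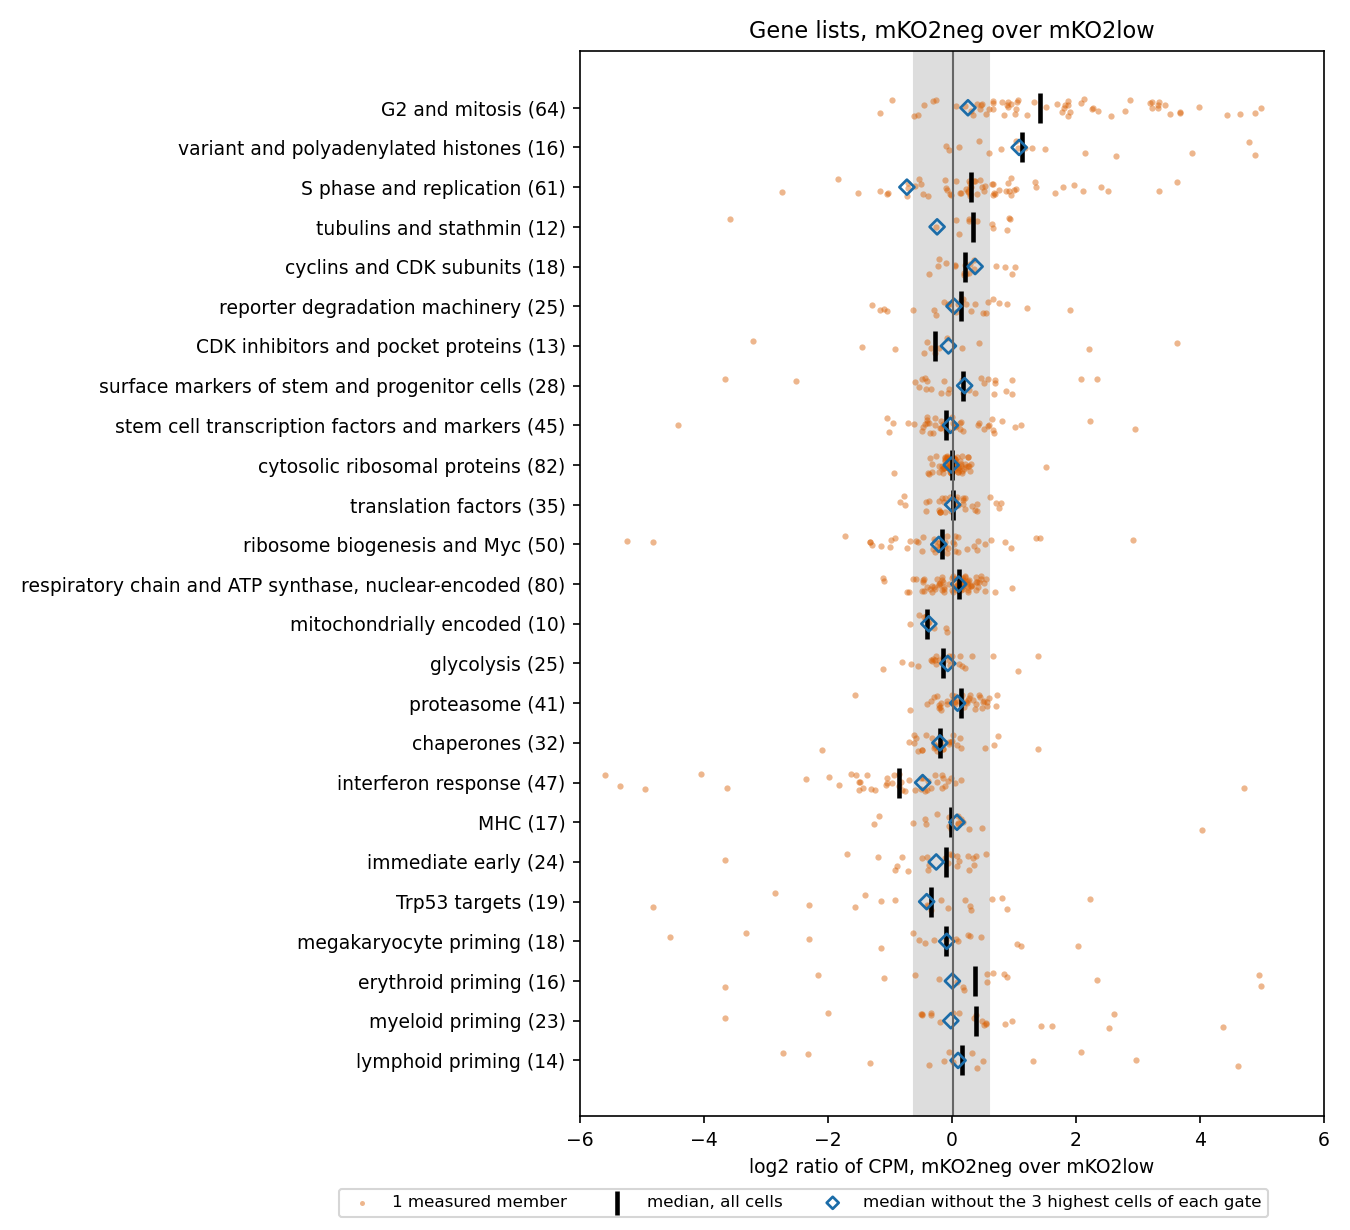
Log2 ratios of mKO2neg over mKO2low for the gene lists. Each dot is 1 measured member, black bars are medians over all cells and diamonds are medians without the 3 cells highest in the list, and the grey band spans the quartiles of all 11375 genes, -0.62 to 0.60. With all cells, the G2 and mitosis list (1.42) lies above the band and the interferon list (-0.85) below it.

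The machinery of protein synthesis did not separate the gates. Cytosolic ribosomal protein genes summed to 216720 CPM in mKO2neg and 216793 in mKO2low, with 40 of 82 members higher and a median of -0.00. Translation factors had 18 of 35 members higher, none 2-fold apart, and a median of 0.02. Ribosome biogenesis leaned the other way, with 17 of 50 members higher, 3 and 8 at least 2-fold higher and lower, and a median of -0.16. Noc2l and Utp20, whose yeast counterparts act in pre-ribosome assembly, had 0 counts in mKO2neg and 38 and 28 counts in 9 and 7 mKO2low cells, at least 11.96-fold and 8.81-fold lower. Gnl3, or nucleostemin, had 285 CPM in mKO2neg and 395 in mKO2low (-0.47, interval -0.65 to -0.30), and Myc, which drives ribosome production, 249 and 188 CPM (0.40, interval 0.19 to 0.62).

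Of 15 listed genes encoded in mitochondrial DNA, 5, among them mt-Co2 and mt-Co3, had 0 counts in both gates. All 10 measured genes of the list were lower in mKO2neg, against 49.5% of all genes. Their median was -0.40 and none was at least 2-fold lower. Their summed level was 28567 CPM in mKO2neg and 35210 in mKO2low, beside 33975 in mAG+ and 39207 in mKO2high. In single cells it ranged from 19741 to 52165 CPM in mKO2neg, with a median of 28769, and from 16243 to 56683 in mKO2low, with a median of 36451, so the gates overlapped. Of these genes, mt-Cytb, a subunit of complex III, was at -0.68 (interval -0.73 to -0.64) and mt-Co1, a subunit of complex IV, at -0.07 (-0.15 to 0.01). The ribosomal RNA genes mt-Rnr1 and mt-Rnr2 are part of the summed level, with 3884 and 12909 CPM in mKO2neg and 5193 and 13837 in mKO2low. Nuclear genes of the respiratory chain and ATP synthase had 51 of 80 members higher, none by at least 2-fold, and a median of 0.11. Glycolysis genes, nuclear as well, had 8 of 25 higher, with a median of -0.14. Ldha, lactate dehydrogenase A, had 659 CPM in mKO2neg and 969 in mKO2low (-0.56, interval -0.67 to -0.44), whereas Gapdh was at -0.04. Hk2, a hexokinase, had 60.3 and 131.5 CPM (-1.12, interval -1.48 to -0.78), but was at 0.15 with equal weight for each cell.

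Of 41 proteasome genes, 27 were higher and the median was 0.14. Of 32 chaperone genes, 23 were lower (49.5% of all genes were), 1 each way was at least 2-fold apart, and the median was -0.20. Hsph1, a heat shock protein of the Hsp110 family, had 11.2 CPM in 5 mKO2neg cells and 49.9 CPM in 18 mKO2low cells (-2.10, interval -2.98 to -1.41). Of 27 DNA methylation and polycomb genes, 7 were higher and the median was -0.30. Dnmt3a, a de novo DNA methyltransferase that limits stem cell self-renewal, had 137 and 198 counts (-0.45, interval -0.77 to -0.13), and Eed, a core subunit of polycomb repressive complex 2, 69 and 174 counts (-1.24, interval -1.68 to -0.84).

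Interferon response genes were lower in mKO2neg. Type I interferon acts through a receptor to assemble a factor that contains Irf9 and binds the interferon-stimulated response element (ISRE), and acute interferon drives resting blood stem cells into cycle. Of 47 measured members, 44 were lower and 20 of these by at least 2-fold, against 49.5% and 16.7% of all genes, and 3 were higher. The median was -0.85, and -0.79 with cells thinned to 5000 counts. The summed level was 8363 CPM in mKO2neg and 11355 in mKO2low, beside 6884 in mAG+ and 11540 in mKO2high. Both gates of the mKO2neg library lay below both gates of the other for 23 of the 47 members, against 17.8% of all genes.

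In single cells the gates overlapped. The summed level ranged from 4853 to 16463 CPM in mKO2neg, with a median of 7877, and from 4771 to 49565 in mKO2low, with a median of 9543. The highest mKO2low cell, with 42268 counts, had counts for 44 of the 47 members. Without the 3 highest cells of each gate, 38 of 45 members were lower, 10 by at least 2-fold, and the median was -0.47.

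The signalling component Irf9, which carries the DNA-binding part of the interferon factor, had 79 counts in 19 mKO2neg cells and 239 in 24 mKO2low cells (-1.50, interval -1.90 to -1.14). It was lower also without the 3 cells, with 52 and 219 counts (-2.03). The antiviral effectors Isg20, an RNA exonuclease, with 74 and 313 counts (-1.98), and Oasl2, of the oligoadenylate synthetase family, with 88 and 263 counts (-1.49), remained at -1.58 and -1.45 without the 3 cells. Ifi44, an antiviral gene, had 52 counts in 13 mKO2neg cells and 157 in 18 mKO2low cells (-1.49, interval -1.99 to -1.05). These genes were counted in 13 to 24 cells of a gate and did not rest on 1 cell. Ifit1, which binds viral RNA, did: it had 29 counts in mKO2neg and 391 in mKO2low, of which 82.6% lay in 1 cell, and its log2 ratio of -3.63 was -1.38 without the 3 cells. Usp18, which removes Isg15 from proteins, was at -1.82 with and -0.07 without them (interval -0.87 to 0.72). Isg15, the ubiquitin-like modifier itself, was at -1.56 with and -0.79 without them (interval -1.81 to 0.10).

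Oasl1 had 0 counts in mKO2neg and 49 in 4 mKO2low cells, and Mx1, an antiviral GTPase, 0 and 31 counts in 4 cells, at least 15.4-fold and 9.76-fold lower at the floor of 3 counts per gate. Other members differed less. Ifitm1 and Ifitm3, membrane proteins that stem cells express without infection, were at -0.27 (2365 and 2856 CPM) and -0.51 (1477 and 2100 CPM). Ifi27l2a went the other way, with 49 counts in 3 mKO2neg cells, 79.6% of them in 1, and 1 count in mKO2low (4.71, interval 3.15 to 11.03).

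**Figure D4:**
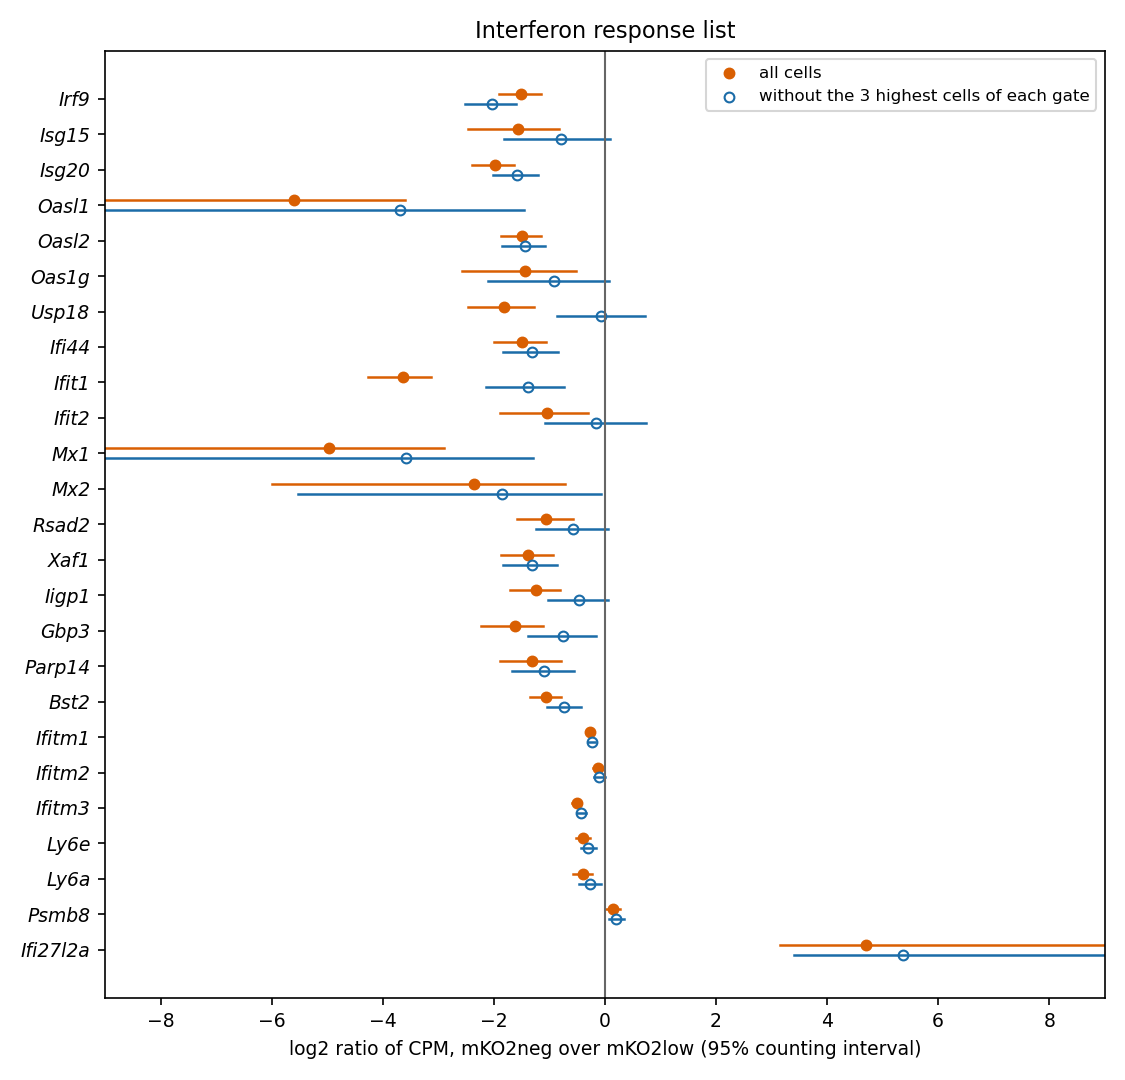
Log2 ratios of mKO2neg over mKO2low for named interferon response genes, from all cells and without the 3 cells of each gate with the highest summed level of the list. Bars are 95% counting intervals. Irf9, Isg20, Oasl2 and Ifi44 lie below -1 in both, while Usp18 is at -1.82 with all cells and -0.07 without the 3.

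RefSeq windows were found for 35 of the 47 interferon response genes. The ISRE core, GAAA followed after any pair of bases by another GAAA and read on both strands, occurred in 21 of their 42 windows (50%), against 3.23% of the windows of measured genes and 3.44% of all. Ifit1 (chr19:34640639-34640938, plus strand) and Isg15 (chr4:156200769-156201068, minus strand) are shown as members of the list that hold the element, with its matches in capitals. The windows of Irf9, Oasl2, Ifi44 and Oasl1 did not contain these letters.
Ifit1: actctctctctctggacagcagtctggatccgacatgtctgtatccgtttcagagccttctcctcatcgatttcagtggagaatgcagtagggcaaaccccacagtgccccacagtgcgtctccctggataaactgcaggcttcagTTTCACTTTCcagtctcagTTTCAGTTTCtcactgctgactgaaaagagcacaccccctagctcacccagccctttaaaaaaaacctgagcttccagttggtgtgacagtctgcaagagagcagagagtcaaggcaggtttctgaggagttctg
Isg15: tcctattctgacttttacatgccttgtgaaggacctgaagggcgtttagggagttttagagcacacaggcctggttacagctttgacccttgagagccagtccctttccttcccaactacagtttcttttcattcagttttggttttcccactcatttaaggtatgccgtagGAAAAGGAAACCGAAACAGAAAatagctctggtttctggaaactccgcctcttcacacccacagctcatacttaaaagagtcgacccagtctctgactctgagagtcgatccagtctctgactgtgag

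Antigen presentation and stress genes were mixed. Of 17 MHC genes, 8 were higher, 1 by at least 2-fold, and 2 were at least 2-fold lower, with a median of -0.02. Those at least 2-fold lower were Cd74, with 59.7 and 144 CPM (-1.27, interval -1.63 to -0.93), and H2-DMb1, with 78 and 189 counts (-1.18). Cd74 had 36.2% of its mKO2low counts in 1 cell, and had 28.3 CPM in mAG+ and 611 in mKO2high. Ciita, the member at least 2-fold higher, had 15 counts in 3 mKO2neg cells and 0 in mKO2low. B2m, the light chain of class I, had 8004 CPM in mKO2neg and 7443 in mKO2low (0.10), and H2-K1 2641 and 3118 CPM (-0.24). Of 24 immediate early genes, 10 were higher, none by at least 2-fold, and 3 were at least 2-fold lower, with a median of -0.09. Jun, a subunit of AP-1, had 489 CPM in mKO2neg and 1122 in mKO2low (-1.20, interval -1.32 to -1.08), beside 509 in mAG+ and 1030 in mKO2high, and Klf2, a factor of quiescence in lymphocytes, had 90.8 and 296.5 CPM (-1.70, interval -1.98 to -1.44). Fos, the other AP-1 subunit, differed less, with 1452 and 2037 CPM (-0.49). Of 19 Trp53 targets, 7 were higher and 6 at least 2-fold lower, with a median of -0.34. Bbc3, which encodes the pro-apoptotic protein Puma, had 7 counts in 2 mKO2neg cells and 60 in 9 mKO2low cells (-2.85, interval -4.39 to -1.89). Among 16 TGF beta and SMAD target genes, 9 were higher and the median was 0.05. Id1, an inhibitor of helix-loop-helix factors, had 88 and 6 counts (3.74, interval 2.78 to 5.44), with 70.5% of the mKO2neg counts in 1 cell, and Eng, or endoglin, a TGF beta co-receptor, 157 and 257 CPM (-0.71, interval -0.94 to -0.49). Foxo, Txnip and antioxidant genes had 18 of 31 members higher and a median of 0.07. Lipid and sterol synthesis (12 of 21 higher, median 0.08) and one-carbon and nucleotide synthesis (14 of 24 higher, median 0.05) were close to the all-gene median.

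Genes of lineage priming, the low expression of mature-cell programmes in stem and progenitor cells, had medians of -0.09 for the megakaryocyte list (8 of 18 higher), 0.38 for the erythroid list (11 of 16, and -0.12 without the highest cell of each gene), 0.40 for the myeloid list (15 of 23) and 0.17 for the lymphoid list (8 of 14). Of the higher myeloid members, Camp, Ltf, Ngp and S100a9 each had 78.4% to 95.4% of their mKO2neg counts in 1 cell, whereas Spi1 and Lyz2 had 18.0% and 9.71%. Ltb, which encodes lymphotoxin beta, had 75.2 CPM in 18 mKO2neg cells and 379 CPM in 38 mKO2low cells (-2.32, interval -2.62 to -2.05), beside 40.8 in mAG+ and 385 in mKO2high. Zfpm1, which encodes the Gata1 cofactor Fog1, had 18.65 and 95.1 CPM (-2.31, interval -2.96 to -1.78). Dntt, the terminal transferase of lymphoid progenitors, had 46 counts in 3 mKO2neg cells and 1 count in mKO2low (4.62, interval 3.06 to 10.9), and Vpreb1, of the surrogate light chain, 52 in 5 and 5 in 3 cells (3.22, interval 2.15 to 5.14). Car2, carbonic anhydrase 2, which early erythroid and stem cells transcribe, had 2263 and 1996 CPM (0.18).

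Markers of most mature cell types were low in both gates. T cell markers summed to 21.1 CPM in mKO2neg and 27.6 in mKO2low, with Cd3e, Cd3g and Trac at 0 counts in both. Cd3d had 1 count in mKO2neg and 24 counts in 1 mKO2low cell, and Lck 33 and 21 counts. B and plasma cell markers summed to 132 and 113 CPM, with Cd79a and Ms4a1 at 0. Cd79b made up 70.9 and 98.0 CPM (-0.46), while Ighm, with 29 and 3 counts (2.98), and Vpreb1 (3.22) were higher in mKO2neg. Of the mKO2neg counts of Ighm and Vpreb1, 75.9% and 69.2% lay in 1 cell each. NK cell markers summed to 29.8 and 19.4 CPM, with Ncr1 and Klrd1 at 0. Mature erythroid markers summed to 181 and 357 CPM, with Alas2 and Slc4a1 at 0. Of these, Hbb-bt had 62.8 and 284 CPM (-2.16, interval -2.50 to -1.86). Hbb-bs (0.56), Hba-a1 (0.65) and Hba-a2 (0.88) were higher in mKO2neg. Hbb-bs was at -0.70 in thinned cells, and 92.5% of the mKO2neg counts of Hba-a2 lay in 1 cell. Stromal and endothelial markers summed to 119 and 68.7 CPM, with Cdh5 and Lepr at 0. No more than 5 members of any of these 5 lists had 10 counts over both gates. Mast cell and basophil markers summed to 235 and 289 CPM, of which Gata2, a factor of stem cells as well, made up 234 and 289. Neutrophil and monocyte markers summed to 1647 and 1243 CPM, with 8 of 10 measured members higher and a median of 1.29 that was -0.58 without the 3 highest cells. Camp, a neutrophil granule gene, had 605 counts in 20 mKO2neg cells and 30 in 5 mKO2low cells (4.37), with 95.4% of the mKO2neg counts in 1 cell. That cell, at 21828 CPM of the list, was the second highest of the 3 cells with mitotic transcripts, so neutrophil granule and mitotic genes were counted in the same cell. Without the 3 highest cells of the marker list, Camp had 27 and 30 counts (-0.08).

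Xist without a Y-linked transcript was counted in 20 mKO2neg and 24 mKO2low cells, and a Y-linked transcript without Xist in 8 and 10 cells. Both kinds of transcript were counted in 7 mKO2neg and 3 mKO2low cells, and neither in 13 and 11. Whether cells with both kinds held RNA of more than 1 cell was not tested.

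Genes were then ranked over the whole transcriptome by the limit of the counting interval nearest 0. Ranked were genes with counts in 12 or more cells of the gate where they were higher. No more than 25% of their CPM summed over single cells could lie in 1 cell. The share of summed counts in 1 cell could be larger, and was 48.4% for Rbl1 in mKO2neg. Besides histone genes, Cdk1, Hoxb5 and Rbl1, the 15 that led in mKO2neg included Osbpl2, an oxysterol-binding protein gene, with 130 counts in 14 mKO2neg cells and 15 counts in 5 mKO2low cells (3.11, interval 2.42 to 4.08). Vps54, a subunit of a tether for transport to the Golgi, had 98 and 13 counts (2.90), and Sel1l, which acts in the degradation of misfolded proteins of the endoplasmic reticulum, 121 and 26 counts (2.26). Bcor, a corepressor of a variant polycomb complex, had 83 and 17 counts (2.30), and Cwc27, a cyclophilin of the spliceosome, 76 and 11 counts (2.76). Fars2, the mitochondrial phenylalanyl-tRNA synthetase, led this side with 113 CPM in mKO2neg and 12.3 in mKO2low (3.13, interval 2.53 to 3.92), but mAG+ had 66.3 CPM and mKO2high 122. Rin3, which acts on Rab5, had 67.8 and 8.22 CPM, beside 35.8 in mAG+ and 112 in mKO2high. For Fars2 and Rin3 it was mKO2low that lay below the other 3 gates.

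Among the 15 that were lowest in mKO2neg, Dcp1b, an mRNA decapping factor, had 2 counts in mKO2neg and 86 in 14 mKO2low cells (-4.79, interval -8.41 to -3.45). Klf9, a Krüppel-like factor induced by glucocorticoids, had 3 counts and 93 counts in 19 cells (-4.48, interval -7.18 to -3.28). Got2, the mitochondrial aspartate aminotransferase, had 10 counts in 7 and 151 counts in 25 cells (-3.71, interval -4.92 to -2.92). Topbp1, a factor of the replication checkpoint, had 7.46 CPM in mKO2neg and 64.6 in mKO2low, beside 90.6 in mAG+ and 10.7 in mKO2high (-3.02, interval -4.11 to -2.25). Tars2, the mitochondrial threonyl-tRNA synthetase, had 14 and 102 counts (-2.70), and Tiparp, a target of the aryl hydrocarbon receptor, 13 and 100 counts (-2.77).

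Because the gates compared lie in different libraries, genes that split all 4 gates by library were identified. Both gates of the mKO2neg library lay above both gates of the other for 2239 genes (19.7%) and below for 2029 (17.8%), and by at least 2-fold for 399 (3.51%) and 313 (2.75%). Myl10, a myosin light chain gene, had 25.5 CPM in mKO2neg and 309 in mKO2low (-3.57, interval -4.10 to -3.14), and likewise 13.97 in mAG+ and 168 in mKO2high. Trip4, a transcriptional coactivator gene, had 6.84 and 34.6 CPM, beside 7.16 and 43.9. Tmbim1, a lysosomal membrane protein gene, had 18.0 and 66.3 CPM, beside 15.8 and 101. Tgm2, or tissue transglutaminase, had 38.5 and 111 CPM, beside 24.0 and 169, and Ifi44 had 32.3 and 92.2, beside 11.8 and 99.6. In each of these, as in Ltb, both gates of the mKO2neg library lay well below both gates of the other library. In the opposite direction, Pcna had 327 CPM in mKO2neg and 129 in mKO2low, beside 381 in mAG+ and 126 in mKO2high, and Osbpl2 had 80.8 and 8.81, beside 28.3 and 8.56. Of the G2 and mitosis list, 55 of 64 measured members lay above in the mKO2neg library, whose other gate, mAG+, is marked by the reporter of S, G2 and M phase. The share of library and of gate in these values cannot be told apart.

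**Figure D5:**
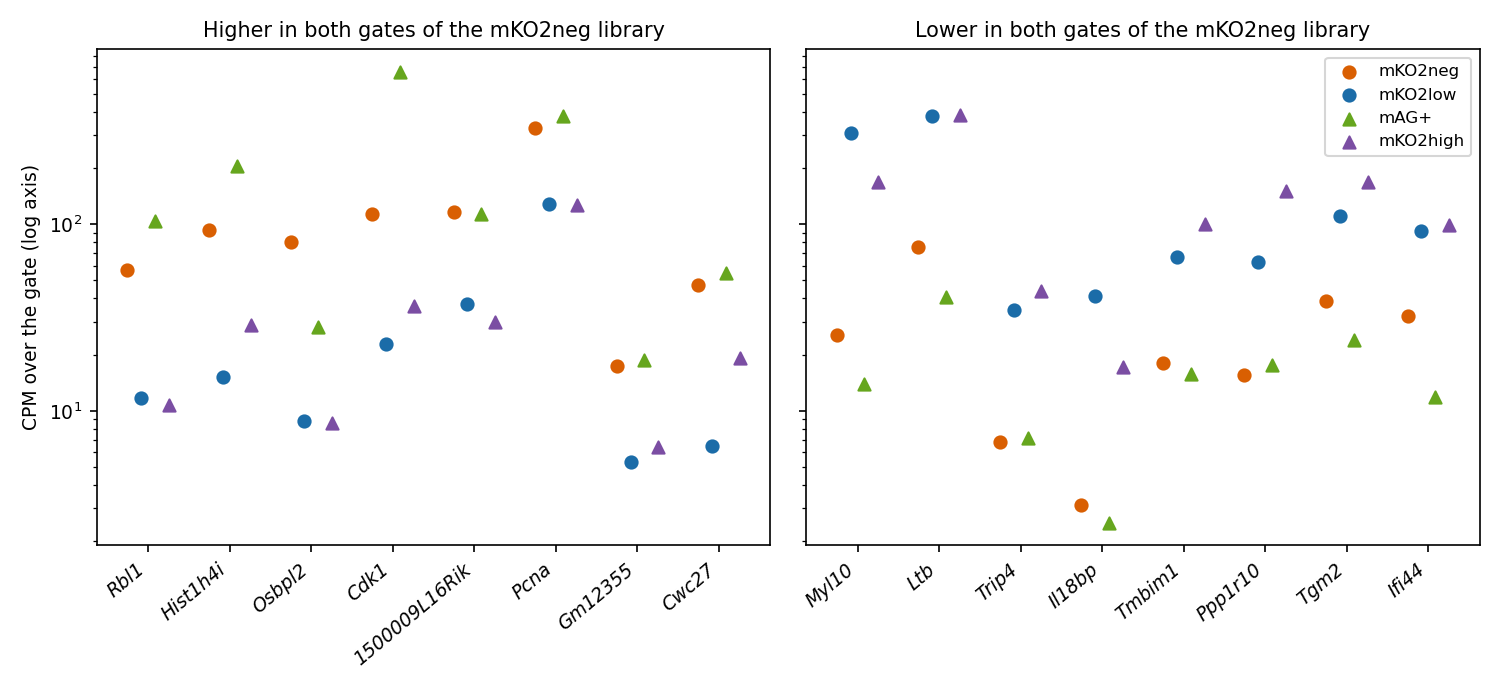
Summed level in CPM, on a log axis, in the 4 gates for genes whose 2 gates of 1 library lie on the same side of both gates of the other. Each point is 1 gate. Myl10 and Ltb are lower in mKO2neg and mAG+ than in mKO2low and mKO2high, and Pcna is higher.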

How the data were processed

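Single bone marrow cells were sequenced with a modified Smart-seq2 method that enriches transcript 3′ ends, per the labels' protocols. The deposited values are raw counts per gene row and cell, and per the submitters' processing notes HISAT2, HTSeq 0.11.3, Seurat and the build mm10 were used. Not given in the sources used here: annotation release, filters, molecular identifiers.

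Each deposited row, 53378 per table, was matched by gene ID to GENCODE M21 (GRCm38, the assembly of mm10), in which 53273 rows were found and 105 were not. Each gene was read from the row of the gene before it. The place of the unmatched rows in that order is not known, and a gene directly after one of them would have been read from a wrong row. The 48 cells of each gate were added up, scaled to CPM, and compared as a log2 ratio with a prior count of 1. Genes with at least 10 counts over both gates were measured. Intervals are exact conditional binomial 95% intervals for ratios and Clopper-Pearson intervals for shares. The floor of 3 counts was 1.86 CPM in mKO2neg and 1.76 in mKO2low. Levels per cell are given for cells with at least 1000 counts, 43 in mKO2neg and 48 in mKO2low. Doublets were not called.

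Named genes were members of the lists (the 6 with the most counts, and those at least 2-fold apart with an interval that excludes 0), the 15 leading genes each way as the report defines them with the same direction in means over cells and in thinned cells, 8 each way for the library split, and a fixed set of cell cycle and stem cell genes. The promoter motifs and the values without the 3 highest cells of a list were chosen after values were seen. A few genes that meet this rule are not reported here. All members, lists and rules were chosen with earlier results of these data known. The alternatives tried were scaling by TMM in edgeR or by size factors in DESeq2, a mean over cells of equal weight, thinning with either of 2 seeds, other filters and priors, cells left out and the names as deposited. The scripts were tested on simulated data. Python 3.11.15, pandas 2.3.3, scipy 1.17.1, R 4.3.3, edgeR 4.0.16 and DESeq2 1.42.0 were used.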

Additional observations from a re-analysis of the deposited data

Results flagged for a closer look

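The 105 deposited rows whose IDs are not in the annotation used here held 15621 counts over all 192 cells, 0.222% of the total. They were flagged because they carry counts and enter no comparison, since a displaced row without a place in the gene order cannot be named. Which genes follow them in that order is not known, so on this account the readings of up to 105 genes are uncertain.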

How the results depend on the processing

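Each gate was 1 sample, so there was no replicate to leave out. No paired analysis was possible because no result came from a test and the labels pair no cells or gates. At 1608630 and 1703263 counts in mKO2neg and mKO2low, single genes of low level rest on few cells, and the values per cell are limited by depth more than the sums. Scaling by edgeR's TMM factors or DESeq2's size factors, a prior count of 5 and the filter on cell quality kept the direction of the medians of the S phase, G2 and mitosis, stem cell, ribosomal protein, respiratory chain and interferon lists.

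The counts of genes at least 2-fold higher and lower moved with the number of counts available: 640 and 636 in cells thinned to 5000 counts (635 and 682 with another seed), 3507 and 3066 without a filter on low counts, and 730 and 753 at 50 counts or more. The median of genes per cell in mKO2low was 1889 and 1887 after thinning with either seed.

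The S phase median of 0.31 was -0.16 with equal weight for each cell, -0.30 and -0.27 in thinned cells, -0.66 without the deepest cell of each gate, -0.24 without the highest cell of each gene and -0.73 without the 3 cells highest in the list. The G2 and mitosis median was 0.26 without those 3 cells, and the median of the interferon response list lay between -0.89 and -0.47 in every setting run. The neutrophil and monocyte marker median was -0.0093 in cells thinned with another seed and -0.58 without the 3 cells. The erythroid median was -0.12 without the highest cell of each gene.

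With the names as deposited, the medians were 0.52 for G2 and mitosis, 0.27 for stem cell factors, 0.0817 for ribosomal proteins, -0.21 for the respiratory chain, -0.24 for the erythroid list and -0.13 for neutrophil and monocyte markers. In these rows, which hold another gene's counts, the log2 ratios were 1.66 for Dcp1b, 0.10 for Topbp1, 0.43 for Tars2, -2.67 for Pcna, -2.26 for Flt3, -4.72 for Myc, -1.73 for Ccnd3, -0.48 for Uhrf1, -0.19 for Ccnb2, -0.58 for Tfrc, 0.78 for H3f3b, 1.92 for Klf2, 0.40 for Ifit1, 2.48 for Zfpm1, 0.21 for Cul4b and -0.69 for Camp.

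Other genes changed direction as follows. With equal weight for each cell, the ratios were -0.19 for Cdkn1c, -0.23 for Gmnn, -0.0007 for Dut, 0.15 for Hk2, -0.0359 for H2afz and 0.0513 for H3f3b. In thinned cells they were -0.53 for Gmnn, 0.30 for Xist, 0.36 for Rfc4 and -0.0661 for H2afz, and with the other seed -0.11 for Cdkn1c, -0.11 for Dut, 0.63 for Hk2 and -0.31 for H2afz. Without the deepest cell of each gate they were -0.51 for Cdkn1c, -0.70 for Gmnn, -0.52 for Dut, -0.93 for Uhrf1, -0.34 for Racgap1, -0.12 for Fbxo5, -0.21 for Stmn1 and -0.27 for H2afz. Without the highest cell of each gene they were -0.21 for Dut, -0.34 for Uhrf1 and -0.0137 for Stmn1. Beyond the settings that leave out cells or change the names, the cause was not tested.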
